A study of Ictidomys tridecemlineatus with 31 samples.

Results

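The mitochondrial ribosomal proteins are the nuclear-encoded proteins of the mitochondrial ribosome whose gene symbols begin with Mrpl (large subunit) or Mrps (small subunit) followed by a digit. In the kidney table of the 13-lined ground squirrel (13-LGS), 81 of 12863 rows carried such a symbol, and 1 row was kept per symbol, the one of highest mean. This left 77 members, 49 of the large and 28 of the small subunit. Mrpl9, Mrpl45, Mrps21 and Mrps35 each had a second row, which was set aside. The table had been filtered on low values by the authors before deposit, so members of the family outside it were not analysed here.

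RNA-Seq of polyadenylated RNA compared kidneys of 13-LGS, a hibernator, at 6 points of its year, each kidney coming from 1 animal that had been perfused to clear its blood. Values are regularized log (rlog) values, log2-scale expression levels that DESeq2 makes from counts after scaling for library size, and the authors had removed a batch effect from them. A difference of 1 is therefore 2-fold, and levels of different genes cannot be compared, since rlog values are not scaled to gene length. Depth behind each value is unknown.

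The active, homeothermic part of the year was represented by summer active animals (SA), fattening in August, and by spring dark animals (SpD), which had finished hibernating and were warm but still in the dark hibernaculum. In the hibernating part of the year, body temperature falls and rises in bouts. Entrance animals (Ent) were cooling into torpor, early arousing animals (EAr) had begun to rewarm from it, late arousing animals (LAr) were further along in rewarming, and interbout aroused animals (IBA) had just completed it. The table held 31 animals, 5 in each state but LAr, which had 6. K137 (SA) and K113 (LAr) stood apart from their states and were left out of the study's own test, so 29 animals (4 SA and 5 of each other state, 16 female and 13 male) entered the fit here and K113 and K137 are shown separately. Libraries were made with 2 kits in 2 experiments, with 3 animals each of IBA, Ent and SpD in experiment 1 and all SA, EAr and LAr animals in experiment 2. The ages of the animals are not given in the sources used here.

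Mitochondrial ribosomes translate the few mRNAs of the mitochondrial genome, all of which encode subunits of the respiratory chain and ATP synthase. Their small subunit reads the mRNA and their large subunit forms the peptide bond. Every protein of the particle is encoded in the nucleus and imported, while its rRNAs come from the mitochondrial genome. Tubules of the kidney are rich in mitochondria and depend on oxidative phosphorylation for the transport of solutes. Reads of the mitochondrial genome were removed by the authors, so that neither the rRNAs nor the translated mRNAs of these ribosomes are part of the values.

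State means of most members lay close together. The range from the lowest to the highest state mean had a median of 0.234 over the 77 members (1.18-fold) and of 0.324 over all rows, and ran from 0.082 in Mrps7 to 0.894 in Mrps6. Only Mrps6, Mrpl36 and Mrps5 had a range above 0.5, as did 24.1% of all rows. In limma with terms for state, sex and experiment, 20 of the 77 members differed across the 6 states at q under 0.05 (11 of 49 large and 9 of 28 small), against 46.1% of all rows. At the study's own threshold for differentially expressed (DE) genes, q under 0.001, 1 member remained, Mrpl16 (q = 0.000117), against 9.34% of all rows. Under this stricter threshold 1 member also remained for IBA minus SA (3.15% of all rows), SpD minus IBA (1.25%) and hibernation minus the active states (9.73%), again Mrpl16, and none for SA minus SpD (0.0544%), Ent minus IBA (0.746%) or IBA minus LAr (1.43%). In the words used below, a member rose, fell or passed when q was under 0.05.

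**Figure D1:**
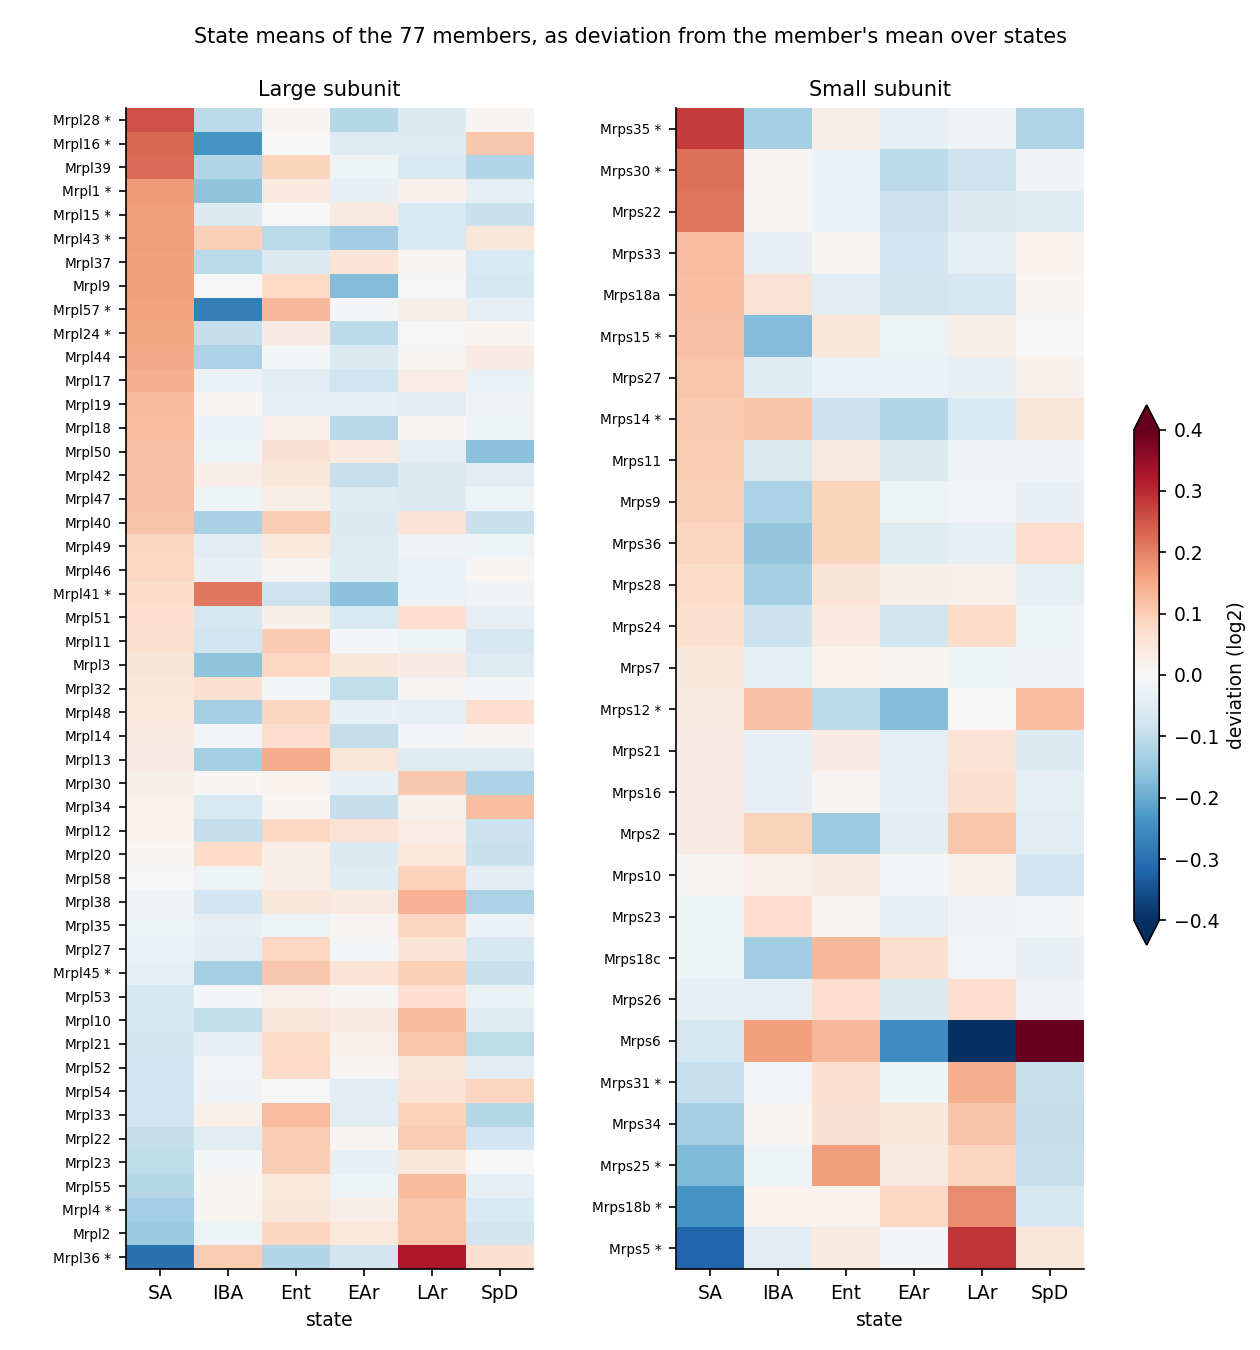
State means of the 77 members (29 animals, 4 to 5 per state), each drawn as its deviation in log2 from the member's mean over the 6 states. Rows are ordered by the deviation in SA and a star marks the 20 members that passed across states. Red in SA and blue in IBA run through most of the upper rows, Mrps6 reaches past the color scale in LAr and SpD, and Mrpl36, Mrps5 and Mrps18b at the bottom are lowest in SA and highest in LAr.

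SA held the highest state mean of 32 of the 77 members (41.6%), compared with 24.7% of all rows. IBA held the lowest mean of 26 members (33.8%), compared with 19.6% of all rows. EAr held the lowest mean of 22 members and the highest of none. Among all 12863 rows, EAr was lowest for 1539 and highest for 1673. Ent held the lowest mean of 1 member only, Mrps2, compared with 10.6% of all rows. LAr was highest for 20 members and lowest for 3, compared with 15.6% and 15.8% of all rows. These counts rest on means of the deposited values and carry no test. The means also carry a part of the batch correction, since SA, EAr and LAr have no experiment 1 animals.

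Averaged over the members of a subunit, the large subunit level was 10.21 ± 0.11 in SA (SD, n = 4), 10.12 ± 0.12 in IBA, 10.20 ± 0.13 in Ent, 10.13 ± 0.04 in EAr, 10.20 ± 0.03 in LAr and 10.13 ± 0.08 in SpD (n = 5 each). SA, Ent and LAr had the 3 highest means for both subunits. For Ent this held in experiment 1, where the large subunit was at 10.254 in Ent and 10.081 in IBA, whereas in experiment 2 Ent was below IBA (10.130 and 10.184 for the large subunit, 9.877 and 9.963 for the small). Small subunit levels were 9.95 ± 0.10 in SA, 9.90 ± 0.09 in IBA, 9.95 ± 0.12 in Ent, 9.88 ± 0.02 in EAr, 9.94 ± 0.02 in LAr and 9.92 ± 0.07 in SpD. Animals of the 6 states overlapped for both subunits, except that the EAr animals (10.082 to 10.172 for the large subunit) met the LAr animals (10.169 to 10.246) only at the edge. The spread between animals was smaller in EAr and LAr than in the other states.

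The large minus small difference had state means between 0.213 and 0.262. It was 0.256 ± 0.024 in SA, 0.220 ± 0.042 in IBA, 0.256 ± 0.021 in Ent, 0.251 ± 0.025 in EAr, 0.262 ± 0.022 in LAr and 0.213 ± 0.053 in SpD. Its size has no meaning of its own, since it depends on gene lengths. Animals of different states overlapped in it. K130 had the lowest value of the SpD animals, 0.119, while the other 4 lay between 0.217 and 0.246, and the SpD mean without K130 was 0.236. K113 was at 0.193 and K137 at 0.212, below every other animal of their states. These 3 low values rest largely on Mrps6, whose values are uncertain because its locus overlaps Slc5a3 in RefSeq. Without Mrps6, K130 was at 0.217 (others 0.255 to 0.278), K113 at 0.255 (others 0.248 to 0.297) and K137 was above the other SA animals (0.267 to 0.297). No test was made on these averages.

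**Figure D2:**
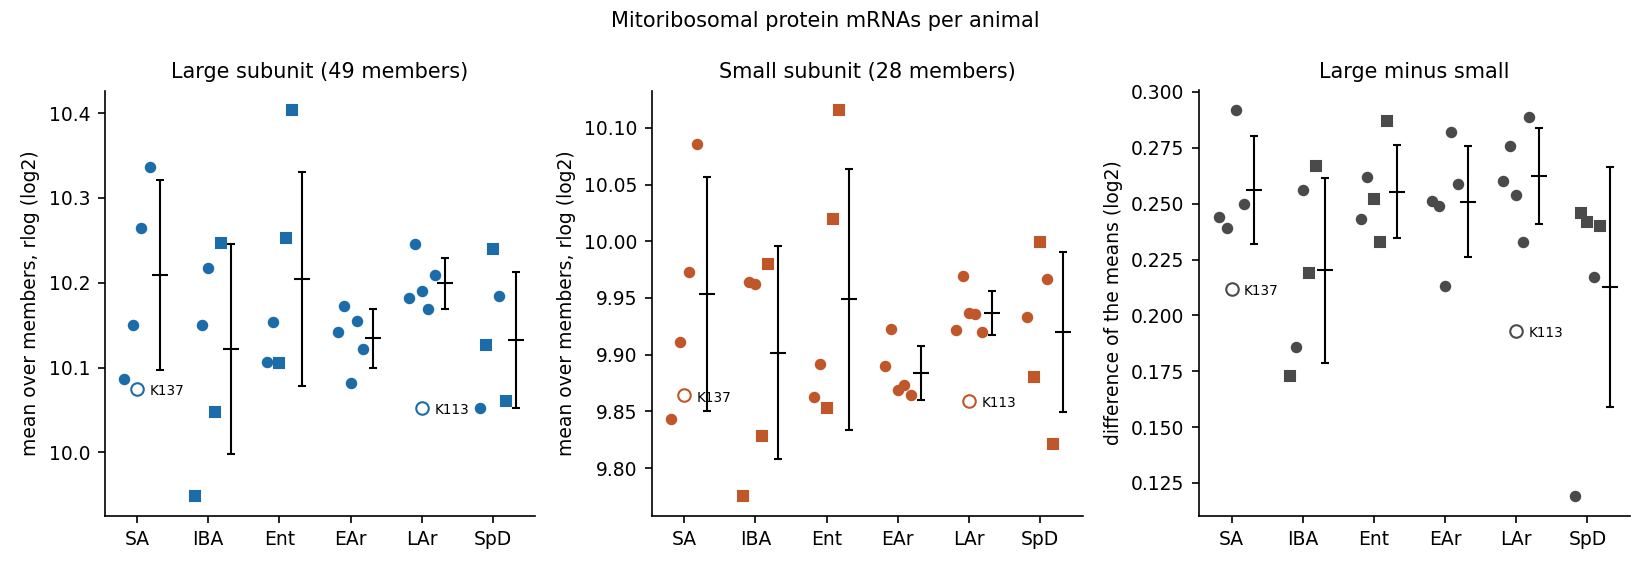
Mean rlog (log2) over the 49 large and 28 small subunit members, and their difference, for each animal by state. Squares are experiment 1, filled circles experiment 2, open circles K113 and K137, and black bars the mean ± SD of the fitted animals. The same animals are high in both subunits, such as the Ent animal K8 at 10.404 and 10.116.

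Across the 29 animals, members also went up and down together. Pearson's r between a member and the mean of the others had a median of 0.64 and exceeded 0.5 for 53 of 77, a description over animals that share libraries and normalization. The members most like the rest were Mrps11 (r = 0.92), Mrpl51 (0.92) and Mrps21 (0.89). Mrps5 (-0.17), Mrps6 (-0.06) and Mrps18b (-0.05) were the 3 members with a negative r, and Mrpl36 (0.07) came next.

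Among the pairs of states compared, the most members passed between IBA and SA, the warm animals of the hibernation season and those of late summer. All 12 members that passed were lower in IBA (9 large and 3 small), where 22.9% of all rows passed and 12.5% passed as lower. The median difference over the 77 members was -0.105 and that over all rows 0.029, and 52 of 77 members were negative. Mrpl16, the counterpart of a bacterial large subunit protein that lies near the site where tRNA enters, was at 10.43, 10.65, 10.58 and 10.71 in SA and at 10.06, 10.15, 10.17, 10.10 and 10.15 in IBA. The states did not overlap, as in 18.8% of all rows, and the fitted difference was -0.52 (SE 0.07, q = 3.67e-05), about 1.44-fold. Mrps35, a small subunit protein with no bacterial counterpart, was at 9.32, 9.54, 9.43 and 9.47 in SA and at 8.86, 9.04, 9.07, 8.91 and 9.24 in IBA, again without overlap (-0.50, SE 0.10, q = 0.00107). Its second row in the table, at a lower level, gave the same direction (7.97 in SA and 7.62 in IBA, q = 0.0057).

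The other members that fell from SA to IBA were Mrpl1, of the mobile stalk near the tRNA exit (-0.39, q = 0.00352), Mrps15 (-0.34, q = 0.0032), Mrpl57 (-0.53, q = 0.00771), Mrpl28, Mrpl15, Mrpl44, Mrpl24, Mrpl39, Mrps28 and Mrpl3. Mrpl44, which carries a fold related to RNase III, went from 10.40 ± 0.13 (n = 4) to 10.12 ± 0.12 (n = 5). In all 77 members, 8 had IBA and SA animals that did not overlap (10.4%). Without IBA animal K104 the count of members that passed fell to 7, and with all 31 animals it was 6, all lower in IBA. Mrpl16, Mrps35, Mrps15 and Mrpl1 passed at q under 0.05 in every alternative fit and with each animal left out.

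With experiment 2 alone (2 IBA against 4 SA animals), 10 members passed, 3 higher and 7 lower. Cell type markers moved in the same comparison: 4 of the 21 marker genes in the table passed, among them Slc27a2 of the proximal tubule and Cd79a of B cells. The averaged proximal tubule markers ran from 14.77 to 15.10 in SA and from 14.13 to 14.83 in IBA. Their part in the member values was not tested, and in a piece of whole kidney fewer cells of a type and less RNA per cell cannot be told apart.

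SA also differed from the other warm group outside of torpor, SpD. Mrps35 (0.49, SE 0.10, q = 0.00689), Mrpl15 (0.30, SE 0.08, q = 0.0186) and Mrpl39 (0.41, SE 0.13, q = 0.0431) were higher in SA, 3 of 77 members against 10.5% of all rows (5.47% higher in SA), and 7 members had groups that did not overlap, against 9.37% of all rows. Mrps35 was at 8.76, 9.10, 9.18, 9.06 and 9.09 in SpD, all below the SA animals. Over the 77 members the median difference was 0.103, with 19 negative, and over all rows -0.005. None of the 3 passed without SpD animal K130, in which Slc14a2, the urea transporter of the inner medulla, reached 12.99 and the proximal tubule markers were lowest of the SpD animals at 13.72, and none passed with all 31 animals (in limma, 9 members had an unadjusted p under 0.05 in each of these fits). In experiment 2 alone (4 SA against 2 SpD animals, with K130 among the latter), 11 members passed, 9 higher and 2 lower in SA.

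From IBA to Ent, as animals began to cool, 9 members passed, 7 higher and 2 lower in Ent (13.1% of all rows passed, 5.52% higher and 7.61% lower), and after centring each animal to a common median 9 rose and 1 fell. Mrpl45, which tethers the ribosome to the inner membrane, was at 9.94, 9.97, 10.08, 9.99 and 9.94 in IBA and at 10.09, 10.20, 10.18, 10.39 and 10.26 in Ent. The animals did not overlap, as in 7.74% of all rows, and the difference was 0.24 (SE 0.05, q = 0.00689). The second Mrpl45 row, at a lower level, had means of 8.63 in IBA, 8.75 in Ent and 8.8 in LAr. Mrpl16 (0.24, q = 0.0143), Mrpl57 (0.40, q = 0.0241), Mrps15 (0.22, q = 0.0289), Mrps18c (0.27, q = 0.0306), Mrpl3 (0.24, q = 0.0378) and Mrps36 (0.25, q = 0.0493) also rose. Mrps36, despite its name, is known as a subunit of the oxoglutarate dehydrogenase complex.

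Mrpl41 and Mrps14 went the other way. Mrpl41, a large subunit protein without a bacterial counterpart, was at 9.50, 9.76, 9.74, 9.49 and 9.74 in IBA and at 9.34, 9.41, 9.19, 9.39 and 9.46 in Ent, with no overlap (-0.29, SE 0.07, q = 0.00875). In RefSeq the Mrpl41 locus overlaps another protein-coding gene, Pnpla7, and reads of the 2 genes may not be separable. Mrps14, which sits in the head of the small subunit, fell by 0.20 on the log2 scale (SE 0.06, q = 0.0252), although it did not pass after median centring. No marker gene passed in limma between Ent and IBA, and 2 of 21 had an unadjusted p under 0.05.

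The experiments differed in the sign of the family's median in this step. In experiment 1 (3 IBA and 3 Ent animals) the median member difference was 0.16, with 68 of 77 positive, and in experiment 2 (2 and 2 animals) it was -0.062, with 22 positive. The sign was the same in both for only 31 of 77 members, and for 61.4% of all rows. The 9 members that passed did share their sign, for example 0.32 and 0.12 for Mrpl45 and -0.23 and -0.38 for Mrpl41, but they were chosen on the pooled values. None passed in limma with experiment 2 alone, where 8 had an unadjusted p under 0.05. In experiment 1 the high Ent animals were K8 and K5 and the low IBA animals K1 and K4, and the count was 4 when K8, K1 or K4 was left out and 5 without K167.

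Between torpor entry and early arousal no member passed in limma (0.257% of all rows did), and none had an unadjusted p under 0.05. The median difference was -0.051, 56 of 77 were negative, and in experiment 2 alone the median was 0.0153. From EAr to LAr, over which the animals rewarmed, again no member passed in limma (0.575% of all rows), and 4 had an unadjusted p under 0.05. Here 59 of 77 members were positive (18 were negative), with a median of 0.051, and 10 had EAr and LAr animals that did not overlap, against 6.84% of all rows. Mrpl36 was one of these, at 10.36, 10.50, 10.46, 10.78 and 10.37 in EAr and at 10.87, 10.96, 10.83, 10.88 and 10.92 in LAr (0.37, SE 0.15, q = 0.463). K113, the LAr animal outside the fit, was at 10.38 for Mrpl36, within the EAr values. All EAr and LAr animals belong to experiment 2.

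At the end of rewarming, from LAr to IBA, 8 members passed (18% of all rows), 6 lower and 2 higher in IBA (8.03% and 9.93% of all rows), and after median centring 11 were lower and 1 higher. Mrpl45 fell by 0.27 on the log2 scale (SE 0.06, q = 0.00473), from 10.16, 10.26, 10.17, 10.27 and 10.20 in LAr, none of which overlapped the IBA animals. Mrpl16 (-0.23, q = 0.0232), Mrps15 (-0.24, q = 0.025), Mrpl10, of the base of the stalk that recruits translation factors (-0.27, q = 0.0359), Mrpl38 (-0.28, q = 0.0446) and Mrpl57 (-0.38, q = 0.0449) fell as well. Mrpl41 (0.29, SE 0.08, q = 0.0128) and Mrps14 (0.20, SE 0.06, q = 0.0313) were higher in IBA. Of the members, 7 had non-overlapping groups (9.09%), against 13.7% of all rows.

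Counts for this step moved with single animals. Without LAr animal K116 the count was 2, without K104 or K115 it was 3, without K111 it was 4, without K1, K84 or K130 it was 5, and without IBA animal K171 it was 14. It was 4 with no term for experiment, 2 with all 31 animals and 1 in experiment 2 alone. The 21 marker genes included 4 that passed, among them Slc27a2 and Slc14a2. Slc14a2 ran from 6.31 to 6.91 in the fitted LAr animals and from 6.67 to 12.24 in IBA, while K113, in LAr, was at 12.87. Whether the marker values bear on the members was not tested.

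From IBA to SpD the median difference was 0.005, with 37 of 77 negative, and 2 members passed, 1 higher and 1 lower in SpD, against 11.9% of all rows (6.48% higher and 5.42% lower). With animal weights 6 members were higher and 0 lower, with a median of 0.0341. Mrpl16 rose by 0.34 (SE 0.06, q = 0.000864), from the IBA values given above to 10.29, 10.46, 10.65, 10.53 and 10.43 in SpD, without overlap, as in 6.51% of all rows. Mrpl41 fell by 0.22 on the log2 scale (SE 0.07, q = 0.0361). In experiment 1 the median was 0.026 and in experiment 2 -0.056, while Mrpl16 was higher in SpD in both (0.41 and 0.25). Mrpl16 thus had its lowest mean in IBA, and every IBA animal lay below every animal of the other 5 states among the 29, whereas K113, in LAr, was at 10.11.

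**Figure D3:**
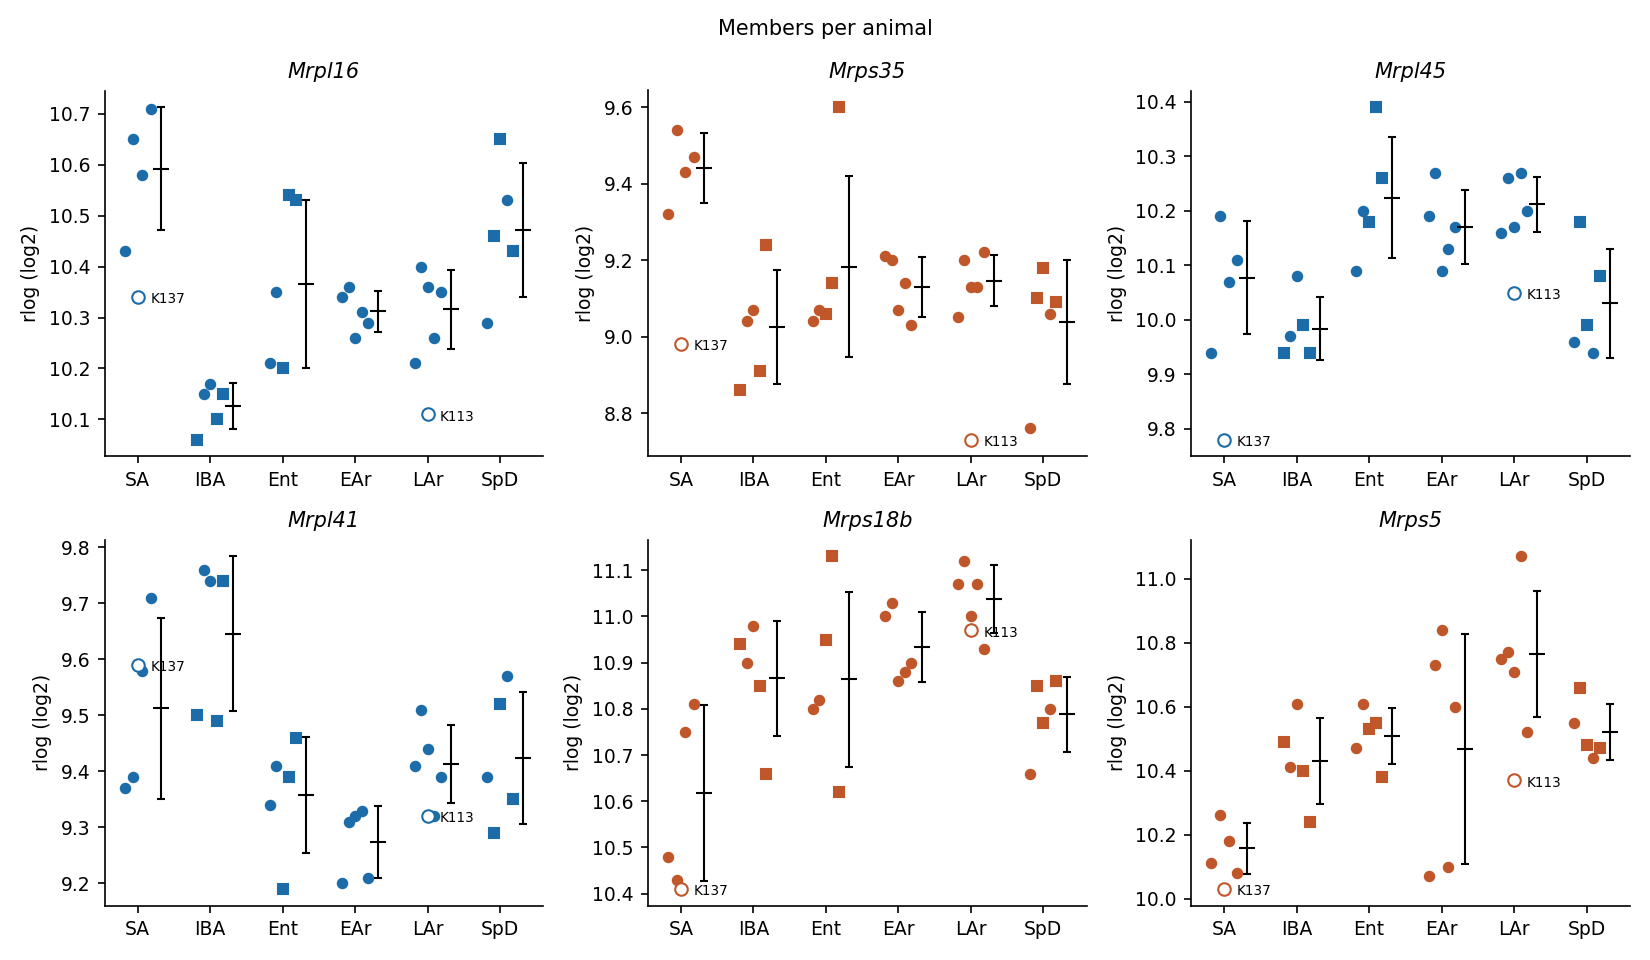
Values in rlog (log2) of 6 members for every animal by state, with squares for experiment 1, filled circles for experiment 2, open circles for K113 and K137, and bars for the mean ± SD of the fitted animals. All 5 IBA animals are at the bottom for Mrpl16 (10.06 to 10.17), the SA animals are high for Mrps35 and low for Mrps5 (10.08 to 10.26), and Mrpl41 is higher and Mrpl45 lower in IBA than in Ent.

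Hibernation as a whole was compared with the active part of the year by setting the mean of IBA, Ent, EAr and LAr against the mean of SA and SpD. Of the members, 19 passed, 12 higher and 7 lower in hibernation, against 33.4% of all rows (16.6% higher and 16.8% lower), and the median difference was -0.024. With animal weights the balance turned, with 8 higher and 17 lower and a median of -0.0604. Mrpl16 was the member of lowest q (-0.25, SE 0.04, q = 4.28e-05), followed among those lower in hibernation by Mrpl28 (-0.20, q = 0.0112), Mrpl43 (-0.16, q = 0.0124), Mrps30 (-0.16, q = 0.0165), Mrps14, Mrpl24 and Mrpl44. Mrps30 is known to sit in the large subunit although it bears a small subunit name. SA and SpD did not both stand apart in each of these. The SpD mean was above every hibernating state for Mrpl16 and Mrpl44. It was among the hibernating states for Mrps30 (SA 9.48, SpD 9.25, IBA 9.26) and Mrpl24 (SA 11.34, SpD 11.19, Ent 11.21). For Mrpl28, SpD and Ent were both at 10.60 and SA at 10.85. For Mrpl43 and Mrps14, SpD was below IBA.

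Mrps18b led the members that were higher in hibernation, at 0.22 (SE 0.05, q = 0.00193). It was at 10.48, 10.43, 10.75 and 10.81 in SA and from 10.93 to 11.12 (median 11.07) in LAr, with the means of the other states between. Mrps34, which stabilizes the small subunit, was 0.17 higher (q = 0.00692), Mrps31 0.14 (q = 0.00713), Mrps25 0.20 (q = 0.00729), Mrpl4 0.15 (q = 0.00801) and Mrpl2 0.17 (q = 0.0103). Mrpl55, Mrpl21, Mrpl45, Mrps5, Mrpl22 and Mrpl33 also rose, with differences of 0.10 to 0.20. The SpD mean of Mrps5 (10.521) was nevertheless above those of IBA, Ent and EAr, and that of Mrpl45 (10.028) was above IBA (9.985). In the second Mrpl45 row SpD was below IBA (8.56 and 8.63). All 19 members overlapped between the seasons, and 0.303% of all rows did not. Without SpD animal K84 the count was 11, and 5 of the 21 marker genes passed in this contrast (Kdr, Nrp1, Umod, Aqp2 and Atp6v0d2), whose part was not tested.

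The Mrps18 paralogs, 3 proteins descended from a single bacterial one, did not share a pattern. Mrps18a, which is known to sit in the large subunit, had state means from 10.03 in EAr to 10.22 in SA and did not pass across states (q = 0.126). Mrps18b ran from 10.62 ± 0.19 in SA to 11.04 ± 0.07 in LAr and passed (q = 0.0078). Mrps18c ran from 8.35 ± 0.10 in IBA to 8.62 ± 0.12 in Ent (q = 0.087). Loci of all 3 overlap another protein-coding gene in RefSeq.

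Mrps5, at the mRNA entrance of the small subunit, was at 10.11, 10.26, 10.18 and 10.08 in SA and at 10.75, 10.77, 10.71, 11.07 and 10.52 in LAr. Its EAr animals split widely (10.07, 10.73, 10.84, 10.10 and 10.60). It passed across states (q = 0.0143). Mrps12, part of the decoding center, passed as well (q = 0.0188), with its lowest mean in EAr (8.94 ± 0.06) and its highest in SpD (9.23 ± 0.19) and IBA (9.23 ± 0.14). Mrpl12, the stalk protein that binds translation factors, had state means between 11.823 and 11.999 (q = 0.284), and Mrpl11, at the base of the stalk, between 10.15 and 10.33 (q = 0.586).

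Sex made no difference that passed. No member differed between males and females in limma (0.218% of all rows did), 7 had an unadjusted p under 0.05, and 73 of 77 were lower in males, with a median of -0.051 against 0.004 over all rows. Of 77 cytosolic ribosomal proteins, 77 were lower in males (median -0.078).

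Mrps6 had the widest range of the family and the largest spread between animals, and did not pass across states (q = 0.0933). It was at 10.32, 10.17, 10.29, 10.33 and 10.13 in LAr and at 12.58, 10.75, 10.74, 11.40 and 10.24 in SpD. K113 (11.52) and K137 (12.26) were far above the other animals of LAr and SA. The 5 animals with the highest Mrps6, namely K130, K137, K104, K113 and K84, were also the 5 with the highest Slc14a2, which ran from 11.82 to 13.51 in them. In RefSeq the Mrps6 locus overlaps Slc5a3, a myo-inositol transporter that medullary cells use against osmotic stress, and 3 of the 5 animals were also among the 5 highest for Slc5a3. Reads of the overlapping genes may not be separable, so Mrps6 values are uncertain. Slc5a3 was chosen for display after its values were seen.

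**Figure D4:**
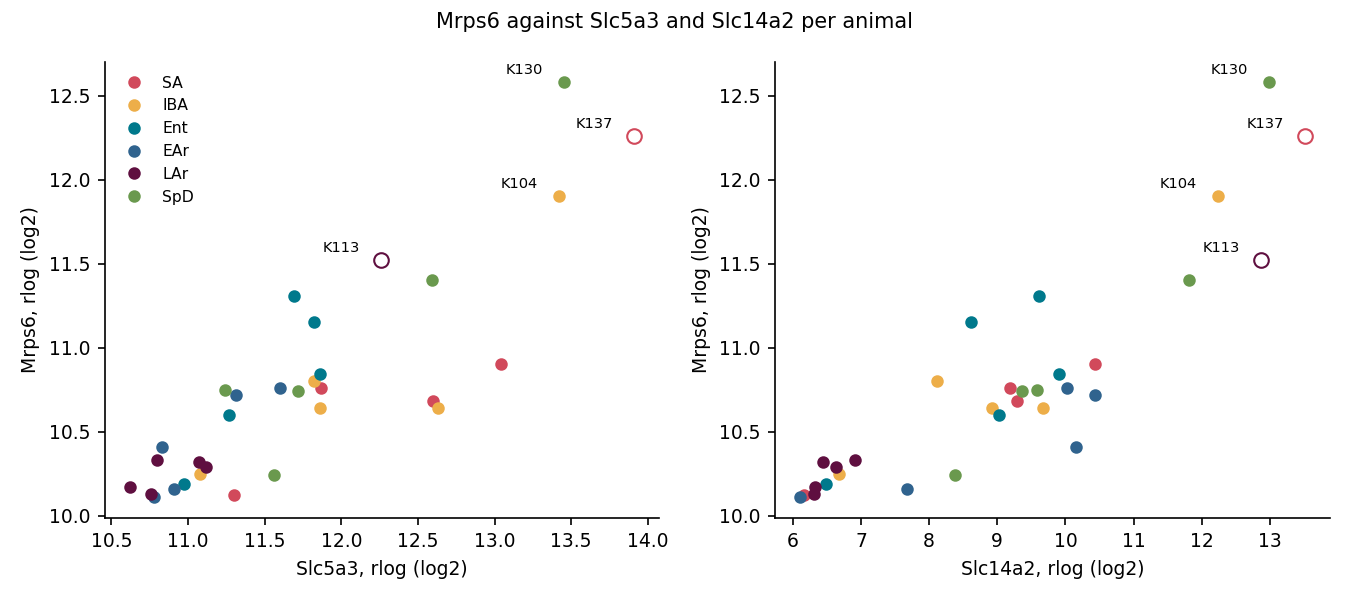
Mrps6 against Slc5a3 (left) and Slc14a2 (right), in rlog (log2), for the 31 animals colored by state, with K113 and K137 as open circles. The 5 animals with Mrps6 of 11.40 or more are the 5 highest for Slc14a2, and the 5 fitted LAr animals sit together at the bottom left of both panels.

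Most other members were lower in K113 and K137 than in the rest of their states. In K113, 49 of 77 members were below all 5 other LAr animals and 7 above (37.2% of all rows were below), and the median member was 0.123 under the mean of the others (-0.123). In K137, 42 members were below all 4 other SA animals and 5 above (29.5% of all rows below; median -0.147). K130, which remained in the fit, had 35 members below the other 4 SpD animals and 9 above (28.4% of all rows below). Outside the range by the most were Mrpl36 (10.38) and Mrps22 (9.09, against 9.45 to 9.74) in K113, and Mrpl15 (10.08, against 10.51 to 10.57), Mrpl37 (10.29) and Mrpl12 (11.47) in K137. Besides Mrps6, Mrpl53 and Mrps10 stood above in K113, and Mrpl36 (10.88) and Mrpl52 (10.50) in K137.

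Of 75 respiratory chain and ATP synthase subunits, 69 in K113 and 57 in K137 were below the others of their state, where 37.2% and 29.5% of all rows were below. K130, with proximal tubule markers at 13.72, went the other way. In it 27 of the 75 were above the other SpD animals and 12 below (32.7% and 28.4% of all rows). Of 77 cytosolic ribosomal proteins, 47 in K113 (61.0%) and 13 in K137 (16.9%) were above the others, where 35.6% and 33.9% of all rows were above. Below the others were 6 in K113 and 0 in K137 (37.2% and 29.5% of all rows). The median differences from the mean of the others were 0.086 in K113 and 0.101 in K137. Proximal tubule markers averaged 13.84 in K113, against 14.78 to 15.05 in the other LAr animals, and in K137 they were likewise under the 14.77 to 15.10 of the other SA animals. In K130 they averaged 13.72. Their part was not tested.

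Respiratory chain and ATP synthase subunits, the nuclear-encoded partners of the proteins made by mitochondrial ribosomes, are set beside the members here. From SA to IBA 33 of 75 fell and none rose (12.5% of all rows fell), with a median of -0.274, and in hibernation 42 fell and none rose (16.8% of all rows fell), with a median of -0.149. From IBA to SpD 12 rose (6.48% of all rows rose), with a median of 0.176, where the members had a median of 0.005. Between SA and SpD their median, 0.083, was below the 0.103 of the members. From IBA to Ent their median was 0.157, with 3 of 75 negative (members 0.077, with 16 of 77 negative). From LAr to IBA it was -0.101, with 71 negative (members -0.088, with 60 negative). In these 2 steps 51.0% and 51.3% of all rows were negative. Of the cytosolic ribosomal proteins, from SA to IBA none of 77 passed (in limma, 1 had an unadjusted p under 0.05; median 0.062), and in hibernation 13 rose and 1 fell (median 0.127; 16.6% of all rows rose). From IBA to SpD none of them passed in limma (1 had an unadjusted p under 0.05), 74 of 77 were negative and the median was -0.099. Their median was 0.092 from IBA to Ent (5 negative) and -0.066 from LAr to IBA (72 negative). Of the 75 respiratory chain and ATP synthase subunits, SA held the highest state mean of 54, IBA the lowest of 40 and EAr the lowest of 31. Of the 77 cytosolic ribosomal proteins, SA held the highest mean of 3 and the lowest of 31. Differences between these lists were not tested.

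**Figure D5:**
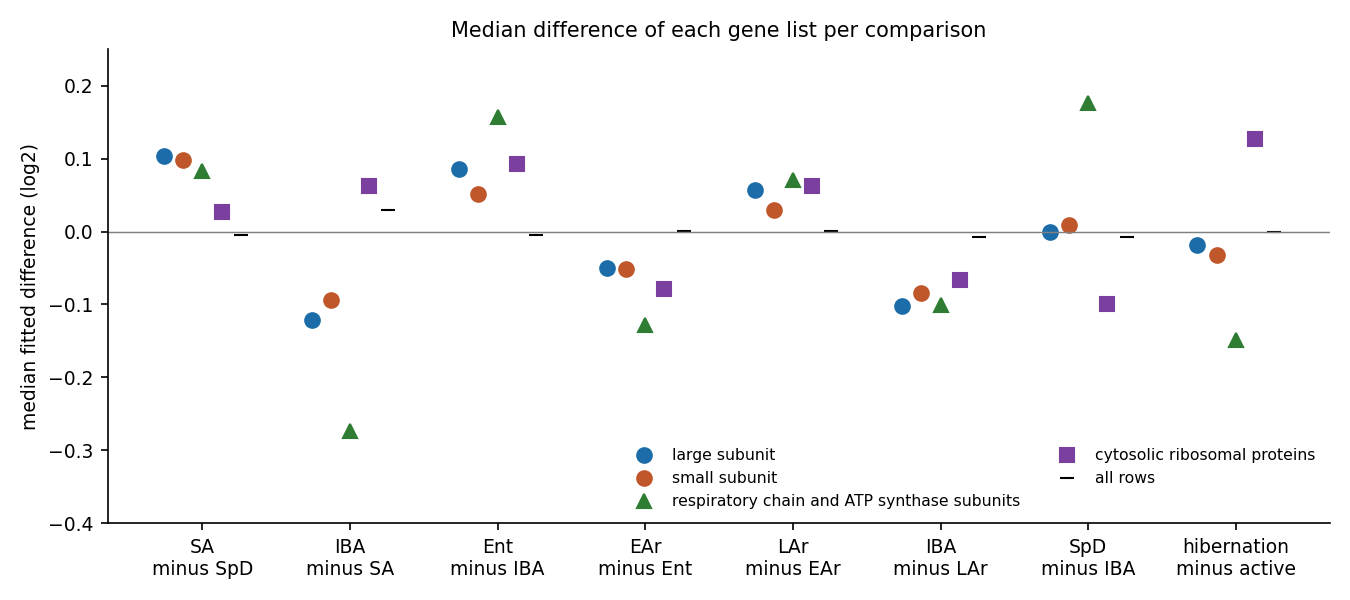
Median fitted difference (log2) of the large subunit, the small subunit, 75 respiratory chain and ATP synthase subunits, 77 cytosolic ribosomal proteins and all 12863 rows in each comparison. Both subunits lie side by side throughout, at -0.122 and -0.094 for IBA minus SA, where the respiratory chain is at -0.274 and the cytosolic ribosomal proteins at 0.062. Comparisons that have a state in common share animals.

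Members with a bacterial counterpart (46) and mitochondrion-specific members (31) were also counted separately. Across states 12 and 8 passed, and from SA to IBA 7 and 5 fell (15.2% and 16.1%, against 12.5% of all rows). In hibernation 8 and 4 rose while 4 and 3 fell (16.6% of all rows rose and 16.8% fell). The shares that passed across states, 26.1% and 25.8%, were both under the 46.1% of all rows. Medians from SA to IBA were -0.081 and -0.147. The difference between these classes was not tested.

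Other genes of mitochondrial translation were described from fixed lists. Of 22 aminoacyl tRNA synthetases and related enzymes, 16 passed across states (72.7%, against 46.1% of all rows), and from SA to IBA 7 fell and 1 rose (22.9% of all rows passed and 12.5% fell). Fars2, which charges the mitochondrial phenylalanine tRNA, had a mean of 8.97 in IBA and means of 9.50 to 9.64 in the other states. It fell by 0.61 on the log2 scale from SA (SE 0.13, q = 0.0022) and rose by 0.67 from IBA to Ent (SE 0.11, q = 0.00072). Gatb (-0.52, q = 0.0024), Nars2 (-0.33, q = 0.0047) and Cars2 (-0.31, q = 0.0069) also fell from SA to IBA, while Pars2 rose (0.36, q = 0.0068) and was higher in hibernation (0.39, q = 3.2e-06).

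Of 14 translation factors, 4 fell and 1 rose from SA to IBA (35.7% passed, against 22.9% of all rows). Gfm1, the elongation factor that moves the ribosome along the mRNA, had means of 12.23 in SA and 11.65 in IBA (-0.64, SE 0.10, q = 0.00013), and Tufm, which delivers tRNAs, of 11.96 and 11.67 (-0.31, SE 0.08, q = 0.0086). Mrrf (-0.25) and Guf1 (-0.37) also fell, and Pdf rose (0.55, q = 0.036). Lrpprc, which stabilizes mitochondrial mRNAs, rose from IBA to Ent (0.28, q = 0.012).

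Of 26 assembly factors, 4 rose and none fell in hibernation, a share of 15.4% against 33.4% of all rows (16.6% higher). Mtg1, a GTPase that completes the large subunit, was higher in hibernation (0.34, SE 0.06, q = 7.3e-05) and fell from LAr to IBA (-0.54, q = 0.00086). Mettl15, a methyltransferase of the small subunit rRNA, had its lowest mean in IBA (7.49), below SA (7.93; q = 0.003) and Ent (7.93; q = 0.005). Malsu1, which keeps subunits apart until the large one is ready, fell from SA to IBA (-0.29, q = 0.004). Of 6 mitoribosomal proteins named otherwise, Ptcd3 fell from SA to IBA (-0.26, q = 0.012) and rose to SpD (0.21, q = 0.029).

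Among 27 genes of mitochondrial transcription and RNA processing, 13 passed across states (48.1%, near the 46.1% of all rows). Tefm, the elongation factor of the mitochondrial RNA polymerase, had means of 10.32 in SA and SpD and of 9.56 to 9.77 in the hibernating states (hibernation minus active -0.62, SE 0.11, q = 0.00016). Pde12, which removes the poly(A) tail of mitochondrial mRNAs, was also lower in hibernation (-0.38, SE 0.05, q = 7.1e-06), and Polg2, the accessory subunit of the mitochondrial DNA polymerase, was higher (0.24, SE 0.03, q = 1.4e-05). Of 15 regulators of mitochondrial biogenesis, 2 rose and 5 fell in hibernation (16.6% and 16.8% of all rows did), among the latter Ppargc1a (-0.27, q = 0.0067) and Esrra (-0.12, q = 0.033). Myc had its highest mean in LAr (9.18, against 7.87 in EAr; 1.31, SE 0.16, q = 1.2e-05). Pprc1, a relative of Ppargc1a, was 0.60 lower in Ent than in IBA (-0.60, SE 0.11, q = 0.0021).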

How the data were processed

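RNA-Seq values of the kidneys of 31 13-LGS were analysed. A further SA animal of the study, K136, was not analysed here. The authors used cutadapt for trimming and hisat2 to take out reads of the mitochondrial genome, then quantified transcripts with Salmon on HiC_Itri_2 annotations, summed them to genes with tximport and filtered out low genes. The deposited values are rlog values (log2 scale) from which the authors had removed the difference between experiments with limma, and the means of experiments 1 and 2 over the animals of the table differed by at most 1.1e-14 for any gene. Since SA, EAr and LAr have no experiment 1 animals, state means carry a part of this correction. Tool versions used by the authors are not given in the sources used here. Counts were not part of the table, so limma 3.58.1 (R 4.3.3) replaced the authors' DESeq2 test. It was fitted to all 12863 rows and 29 animals with state, sex and experiment as terms and an intensity trend (21 residual degrees of freedom), which is why fitted differences can depart from differences of state means. Tests were 2-sided, with Benjamini-Hochberg adjustment within each contrast, and adjusted values are called q. The fit was tested on simulated data. The members, lists and comparisons were chosen with earlier results of these data known.

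Members were named by a rule: up to 4 of lowest q per contrast and direction, the highest and lowest of each subunit, members of known role, and those outside their state's range in K113 or K137. Others are named where they complete a count. Cytosolic ribosomal proteins were matched by symbol, without ribosomal protein kinases, a binding protein and a pseudogene, and the respiratory chain list leaves out assembly factors. Of the members, 75 of 77 matched a RefSeq symbol (assembly mIctTri1.hap1, not the build of the table), used only to find overlapping genes (14 members). The 14 were Mrpl14, Mrpl21, Mrpl27, Mrpl40, Mrpl41, Mrpl49, Mrpl50, Mrps2, Mrps6, Mrps7, Mrps18a, Mrps18b, Mrps18c and Mrps34. Alternatives were all 31 animals, no experiment term, no intensity trend, animal weights, experiment 2 only, rows with a mean of at least 8, median centring, q under 0.001, each animal left out, and all rows of a repeated symbol. For the subunit difference they were another assignment of members, medians and, added after seeing the data, leaving out Mrps6. Python 3.11.15 with matplotlib 3.10.9 made the figures.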

Additional observations from a re-analysis of the deposited data

Results flagged for a closer look

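Values far from the other animals of their state were looked for in 258 groups of 4 or 5 animals, over 40 named members and the subunit averages, with Dixon's ratio at its 95% critical value. There were 12 such values, about as many as chance alone gives (about 1 in 20 groups), so no single one is established as a real deviation. The Ent animal K8 gave 5 of them, all high: Mrpl1 at 10.75 (others 10.28 to 10.38), Mrpl11 at 10.88 (others 10.17 to 10.22), Mrpl3 at 11.34 (others 10.86 to 10.93), Mrpl47 at 8.09 (others 7.65 to 7.73) and Mrps35 at 9.60 (others 9.04 to 9.14). Another Ent animal, K5, was high for Mrpl10 at 10.99.

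Among EAr animals, K157 was low for Mrpl11 (10.13, others 10.23 to 10.26) and for Mrpl52 (10.21, others 10.43 to 10.49), and K158 was high for Mrps22 (9.70, others 9.47 to 9.52). The LAr animal K111 was high for Mrpl3 (11.05) and Mrpl57 (10.86, others 10.51 to 10.60). The large minus small difference of the SpD animal K130 was 0.119, and those of the other 4 were 0.217 to 0.246; without Mrps6 they were 0.217 and 0.255 to 0.278.

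In the animals outside the fit, Mrps6 was above every other animal of the state, at 11.52 in K113 (others 10.13 to 10.33) and at 12.26 in K137 (others 10.12 to 10.90).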

How the results depend on the processing

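Of 73 member results past q 0.05, 20 were tests across the 6 states, which have no sign. None of the others changed sign in any alternative fit. Of all 73, 20 stayed under q 0.05 in every alternative fit and 29 with each animal left out. Counts of members that passed moved more. With all 31 animals, 0 members passed for SA minus SpD, 6 for IBA minus SA and 2 for IBA minus LAr. With no term for experiment, 4 passed for IBA minus LAr. With animal weights, 41 passed across states, 1 for SA minus SpD, 19 for Ent minus IBA, 1 for LAr minus EAr, 20 for IBA minus LAr, 6 for SpD minus IBA (all higher) and 25 for hibernation minus active (8 higher and 17 lower). In experiment 2 alone, 11 passed for SA minus SpD (4 against 2 animals, K130 among the 2). There, 0 passed for Ent minus IBA (limma, 2 against 2 animals), 1 for IBA minus LAr and 1 for SpD minus IBA. After median centring, 1 passed for SpD minus IBA. At q under 0.001, 1 member passed across states, for IBA minus SA, for SpD minus IBA and for hibernation minus active, and 0 for SA minus SpD, Ent minus IBA and IBA minus LAr. The cause of these changes was not tested.

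With each animal left out, counts ran from 15 to 27 across states, 0 to 5 for SA minus SpD, 7 to 17 for IBA minus SA, 4 to 13 for Ent minus IBA, 2 to 14 for IBA minus LAr, 1 to 3 for SpD minus IBA and 11 to 22 for hibernation minus active, and stayed at 0 for EAr minus Ent, LAr minus EAr and male minus female. The SpD minus IBA count was 1 without K104, K3 or K7, and the SA minus SpD count was 5 without K5 or K6.

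With Mrps30 and Mrps18a counted as large and Mrps36 left out, the large minus small difference was 0.212 in Ent, 0.206 in EAr and 0.211 in LAr, and as a median over members it was 0.167 in SA and 0.116 in IBA. Without Mrps6, chosen after seeing the data, it was 0.281 in SA and 0.288 in Ent. Leaving out each animal, it ran from 0.244 to 0.262 in SA, 0.208 to 0.232 in IBA, 0.248 to 0.261 in Ent, 0.243 to 0.260 in EAr, 0.256 to 0.270 in LAr and 0.204 to 0.236 in SpD. No paired analysis was possible because the animals of different states share no replicate number. The planned description of promoter motifs was not run, as no promoter sequence was used here. Depth is unknown, and with 4 or 5 animals per state the spread between animals limits each value.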
